A study of Mus musculus with 16 samples.

Results

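CD8+CD44+ T cells whose receptor library held 2 different rearranged TCR beta chains (TRB) were compared with cells that held 1. A barcode, the label of 1 droplet, was counted as a 2-TRB barcode when its productive full-length contigs carried at least 2 distinct TRB CDR3 nucleotide sequences. The rule found 72 of 1986 barcodes in vitiligo skin and 394 of 3744 barcodes in the tumor-draining lymph node, which makes 466 of 5730 in all. Exactly 1 TRB was found in 1688 skin and 3219 lymph node barcodes, and these were the reference throughout. Among the deposited contigs, no barcode with a TRB held more than 2 TRB or more than 2 alpha chains (TRA), so each member had exactly 2 TRB. Whether chains beyond 2 of a kind were left out before deposition was not tested, and such a limit would bear on the counts of chains per barcode.

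The cells were sorted from C57BL/6 mice aged 16 weeks with melanoma-associated vitiligo, taken 45 days after tumor surgery. Skin and lymph node were matched, and all groups shared the strain, the tumor, the surgery and the CD8+CD44+ sort. Skin was digested with collagenase IV at 3 mg/mL and DNase I at 0.2 mg/mL for 45 minutes at 37 °C, whereas the lymph node was passed through a 40 µm filter. Each tissue had 1 receptor library and each library was run on 4 lanes, so lanes were not replicates, no test could be made, and tissue, digestion and library cannot be told apart. How many mice a library pools is not given. RNA was analysed for the lymph node only, and skin RNA was not analysed here.

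The beta chain of the T cell receptor is assembled in the thymus from V, D and J segments, and the base sequence at their junction, the CDR3, is close to a fingerprint of 1 rearrangement. A cell has 2 TRB alleles, and allelic exclusion normally leaves only one of them with a productive rearrangement, while the TRA locus is excluded less strictly. A droplet that holds a pair of cells, or a cell together with free receptor RNA, also yields more than 1 productive chain under a single barcode. In the GENCODE M21 annotation of the build mm10 the Trbv genes lie on chromosome 6 between 40891229 and 41558452, the constant genes Trbc1 and Trbc2 lie at 41538218 to 41539881 and 41546730 to 41548352 of that chromosome, and Trac lies on chromosome 14 at 54220521 to 54224206.

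The CDR3 sequences of TRB pairs that returned in several barcodes are shown first, because each is the same pair of rearrangements met repeatedly. Chains of a pair are called a and b, capitals mark the bases between the start and the end that chains a and b share, and the TRA of the same barcodes is in lower case. The sequences are those of the deposited contigs, from 5′ to 3′.
Skin pair 1, TRB a (TRBV26, TRBJ2-5): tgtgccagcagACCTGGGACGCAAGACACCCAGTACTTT
Skin pair 1, TRB b (TRBV5, TRBJ2-7): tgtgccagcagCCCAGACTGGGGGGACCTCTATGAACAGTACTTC
Skin pair 1, TRA (TRAV16D-DV11, TRAJ37): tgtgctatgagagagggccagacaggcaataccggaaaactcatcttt
Skin pair 2, TRB a (TRBV15, TRBJ1-3): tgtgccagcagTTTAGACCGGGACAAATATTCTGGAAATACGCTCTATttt
Skin pair 2, TRB b (TRBV10, TRBJ2-4): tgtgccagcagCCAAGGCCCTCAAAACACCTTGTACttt
Skin pair 2, TRA 1 (TRAV9D-3, TRAJ26): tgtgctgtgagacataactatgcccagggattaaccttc
Skin pair 2, TRA 2 (TRAV12D-2, TRAJ22): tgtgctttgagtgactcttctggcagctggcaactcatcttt
Skin pair 3, TRB a (TRBV26, TRBJ1-1): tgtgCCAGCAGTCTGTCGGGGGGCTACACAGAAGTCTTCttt
Skin pair 3, TRB b (TRBV20, TRBJ1-3): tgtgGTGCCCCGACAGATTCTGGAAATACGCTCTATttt
Skin pair 3, TRA (TRAV7-3, TRAJ32): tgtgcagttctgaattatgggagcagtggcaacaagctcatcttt
LN pair 1, TRB a (TRBV1, TRBJ2-7): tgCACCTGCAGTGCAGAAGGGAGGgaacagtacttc
LN pair 1, TRB b (TRBV13-3, TRBJ2-7): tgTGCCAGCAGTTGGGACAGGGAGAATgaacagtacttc
LN pair 1, TRA (TRAV4-3, TRAJ49): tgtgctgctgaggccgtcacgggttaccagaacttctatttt
LN pair 3, TRB a (TRBV2, TRBJ2-1): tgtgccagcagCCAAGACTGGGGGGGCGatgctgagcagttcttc
LN pair 3, TRB b (TRBV14, TRBJ2-1): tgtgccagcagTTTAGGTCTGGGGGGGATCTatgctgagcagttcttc
The capitals take up most of each CDR3 shown except in LN pair 3, whose chains share the J segment and where the lower-case ends are longer than the capitals. Over all members, the 2 CDR3 sequences differed by 7 to 24 edits in skin and by 5 to 27 in the lymph node, with a median of 17 in both tissues. None of the 72 skin and none of the 394 lymph node barcodes held chains within 2 edits of each other, so no member rested on a near copy of its other chain.

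The depth behind these calls was low in both tissues. The skin table held 4545 contigs, of which 3603 were productive and full-length (1832 TRB and 1771 TRA). The lymph node table held 9927 contigs, of which 7423 were kept (4007 TRB and 3416 TRA). UMIs, molecular tags that count captured RNA molecules once, had a median per kept TRB of 4 in skin and 7 in the lymph node. In the gene table were 3266 lymph node cells with 14556622 UMIs, a median of 4423 per cell. The receptor tables shared 12 barcodes, none of them a member and none with a CDR3 in common.

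Of the barcodes with any TRB, 4.09% had 2 in skin (72 of 1760, 95% interval 3.21 to 5.12%; 2.51% with contigs of at least 3 UMIs) and 10.9% had 2 in the lymph node (394 of 3613, 9.91 to 11.97%). Intervals are exact Clopper-Pearson or exact Poisson-ratio intervals and cover counting error only. With 1 library per tissue the difference between skin and lymph node was not tested.

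Recurring pairs made up 29.2% of skin members (21 of 72, 19.0 to 41.1%), in 5 distinct pairs, and 2.03% of lymph node members (8 of 394, 0.881 to 3.96%), in 4 distinct pairs. The 72 skin barcodes held 56 distinct pairs in all, and the 394 lymph node barcodes held 390. No pair was found in both tissues.

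**Figure D1:**
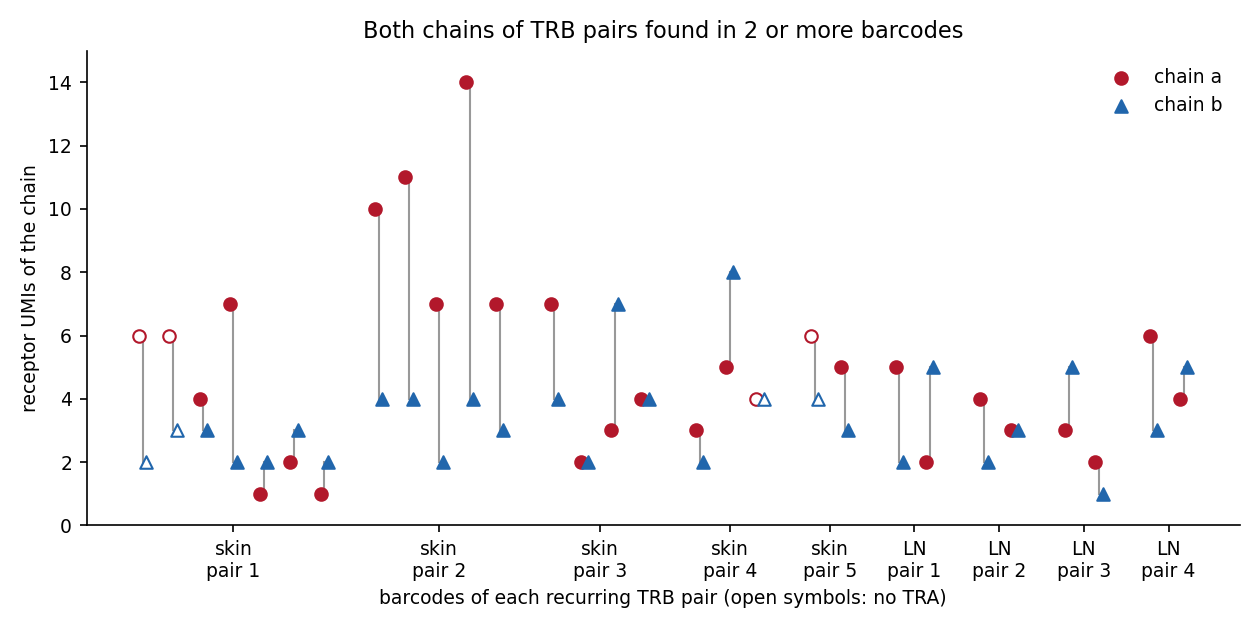
Receptor UMIs (vertical axis) of chain a (circles) and chain b (triangles) in every barcode of the 9 recurring TRB pairs, 5 from skin and 4 from the lymph node (LN), with open symbols for barcodes without a TRA. Chain a had 1 to 14 UMIs and chain b 1 to 8, and chain b of skin pair 2 stayed below chain a in 5 of 5 barcodes.

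Skin pair 1, which joined a TRBV26 and a TRBV5 chain, was the most frequent, in 7 barcodes. Chain a had 6, 6, 4, 7, 1, 2 and 1 UMIs in these barcodes, and chain b had 2, 3, 3, 2, 2, 3 and 2. Chain a led in 4 barcodes and chain b in 3, so neither was always the minor chain. All 5 of the barcodes with a TRA carried the same one, TRAV16D-DV11 joined to TRAJ37. Chain a was also the only TRB of 10 further skin barcodes, and all 7 of those with a TRA carried the TRA of the pair. Chain b was the only TRB of 2 further barcodes, and the 1 with a TRA carried the same TRA.

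Skin pair 2 joined a TRBV15 and a TRBV10 chain in 5 barcodes. Chain a had 10, 11, 7, 14 and 7 UMIs and chain b had 4, 4, 2, 4 and 3, the second amounting to 28.6 to 42.9% of the first. Here the TRBV15 chain led every time. The 5 barcodes were divided between the TRA sequences shown above, 3 with one and 2 with the other, and none carried both. Chain a stood alone in 4 more barcodes, in which all 3 with a TRA carried 1 of the 2, whereas chain b never stood alone.

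Skin pair 3 joined a TRBV26 and a TRBV20 chain in 4 barcodes, with 7, 2, 3 and 4 UMIs of chain a and 4, 2, 7 and 4 UMIs of chain b. All 4 carried the same TRA, and neither chain was ever the only TRB of a barcode. Skin pair 5, TRBV1 with a chain assigned jointly to TRBV12-2 and TRBV13-2, likewise never appeared as a single chain, in 2 barcodes with 6 and 5 UMIs against 4 and 3.

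Skin pair 4, TRBV19 with TRBV13-1 in 3 barcodes, differed in what its chains did elsewhere. Chain a had 3, 5 and 4 UMIs and chain b had 2, 8 and 4. Its TRBV19 chain was the only TRB of 13 further barcodes, and 0 of the 10 with a TRA carried the TRA of the pair. Its TRBV13-1 chain was the only TRB of 3 others, and the 1 with a TRA did carry it.

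Each recurring lymph node pair was found in 2 barcodes, and pairs 1, 2 and 4 had 1 shared TRA each. LN pair 1 had 5 and 2 UMIs of TRBV1 against 2 and 5 of TRBV13-3. LN pair 2 had 4 and 3 UMIs of TRBV16 against 2 and 3 of TRBV5. LN pair 4 had 6 and 4 UMIs of TRBV3 against 3 and 5 of TRBV13-3. The barcodes of LN pair 3 differed in TRA, 1 of them holding 2 TRA, and together they held 3 TRA sequences. The TRBV14 chain of LN pair 3 was also the only TRB of 21 skin barcodes, and all 14 of these with a TRA carried a TRA found with the pair.

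Recurring and other members are set side by side in their number of TRA and in RNA depth. None of 21 barcodes of recurring skin pairs had 2 TRA, which allows a share of up to 14.3%, against 12 of 51 other skin members (23.5%, 12.8 to 37.5%). For lymph node pairs, 1 of 8 barcodes of recurring pairs had 2 TRA, against 99 of 386 other members (25.6%, 21.4 to 30.3%). The interval of 1 of 8, 0.316 to 52.7%, spans that of the other members, and in skin the intervals overlap (0 to 16.1% for recurring pairs). The 21 skin barcodes come from only 5 distinct pairs and the 8 lymph node barcodes from 4. Barcodes of a pair are not independent draws, so this bound and these intervals are too narrow for the recurring pairs. The 8 lymph node barcodes of recurring pairs had 1519 to 3560 RNA UMIs with a median of 2670, all below the median of 4445 in 1-TRB cells. The other 307 members in the gene table had a median of 5917. The part that depth or pairs of cells played in these values was not tested.

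The second chain of a member was a substantial part of its TRB signal. Ordered by UMIs, the first TRB had a median of 5 UMIs and the second a median of 2 in skin members, against 4 for the TRB of 1-TRB barcodes. The lymph node medians were 7 for the first and 4 for the second, against 7 for the only TRB. The first chain is the larger of 2 by this ordering, so its closeness to an only chain is not a measure of equal capture. Summed TRB UMIs were higher in members, with a median of 8 in skin and 11 in the lymph node. TRA UMIs summed per barcode had a median of 3 in skin members and 3 in skin 1-TRB barcodes, and of 5 in lymph node members and 4 in lymph node 1-TRB barcodes.

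**Figure D2:**
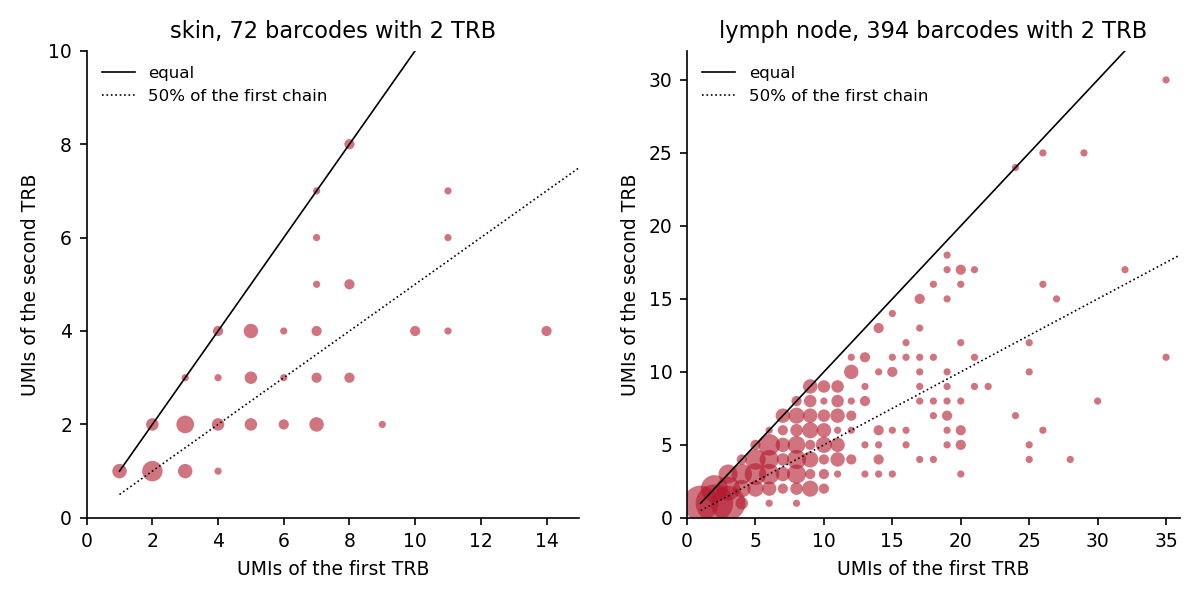
UMIs of the second TRB (vertical axis) against UMIs of the first TRB (horizontal axis) in the 72 skin and 394 lymph node members, with point area proportional to the number of barcodes, a solid line for equal UMIs and a dotted line at 50%. The barcodes on or between the lines are 66.7% of skin members and 69.0% of lymph node members.

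As a share of the first chain's UMIs, the second had a median of 52.3% in skin (quartiles 40.0 and 76.2%) and 60.0% in the lymph node (quartiles 40.0 and 83.3%). It reached at least 50% in 48 of 72 skin members (66.7%, 54.6 to 77.3%) and 272 of 394 lymph node members (69.0%, 64.2 to 73.6%). It was under 20% in 0 of 72 skin members, which allows a share of up to 4.17%, and in 5 of 394 lymph node members (1.27%). Minor chains at a small fraction of the major one were thus rare in both tissues, although with first chains of 5 and 7 UMIs a chain far below 20% would seldom be seen at all.

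A larger share of second chains than of only chains rested on 1 UMI. The second TRB had 1 UMI in 17 of 72 skin members (23.6%, 14.4 to 35.1%), against 9.24% of only TRB in skin (156 of 1688). The lymph node second TRB had 1 UMI in 79 of 394 members (20.1%, 16.2 to 24.4%), against 2.64% of only TRB (85 of 3219). At least 3 UMIs supported the second TRB in 45.8% of skin members and 66.8% of lymph node members, against 74.5% and 90.6% of only TRB in skin and the lymph node. Reads per UMI were alike for all chains of a tissue, with medians of 444 for first, 466 for second and 444 for only TRB in skin, and of 143, 146 and 140 in the lymph node. By this measure, second chains were sequenced as fully per molecule as the others.

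The TRA chains of the same barcodes were counted next. In skin, 2 TRA were found in 12 of 72 members (16.7%, 8.92 to 27.3%) and in 128 of 1688 1-TRB barcodes (7.58%, 6.37 to 8.95%). Lymph node barcodes had 2 TRA in 100 of 394 members (25.4%, 21.2 to 30.0%) and in 307 of 3219 1-TRB barcodes (9.54%, 8.54 to 10.6%). The lymph node intervals did not overlap, and those of skin overlapped narrowly. With contigs of at least 3 UMIs the skin shares were 6.06% of members and 1.95% of 1-TRB barcodes. A barcode without a TRA was about as frequent in members, 19.4% in skin and 20.3% in the lymph node, as in 1-TRB barcodes, 21.7% in skin and 20.8% in the lymph node. The excess of 2 TRA in members was thus matched by fewer barcodes with 1 TRA, 63.9% in skin and 54.3% in lymph node members against 70.7% in skin and 69.6% in lymph node 1-TRB barcodes.

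**Figure D3:**
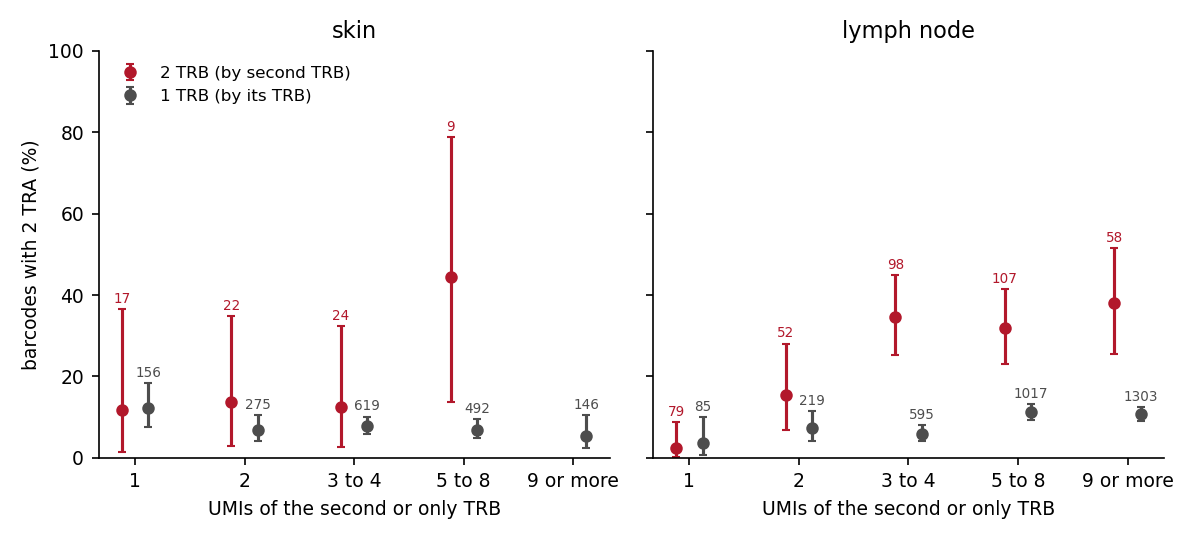
Barcodes with 2 TRA (vertical axis, percent with exact 95% interval) by UMIs of the second TRB in members (red) and of the TRB in 1-TRB barcodes (grey), with the number of barcodes above each point. In the lymph node the members lie at 2.53% for 1 UMI and at 37.9% for 9 or more UMIs, while the 1-TRB barcodes lie between 3.53 and 11.2%.

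In the lymph node, the share with 2 TRA went with the UMIs of the second TRB. It was 2.53% of 79 members whose second TRB had 1 UMI, 15.4% of 52 with 2 UMIs, 34.7% of 98 with 3 to 4, 31.8% of 107 with 5 to 8 and 37.9% of 58 with 9 or more. Over the same UMI classes of their TRB, 1-TRB barcodes had 3.53, 7.31, 5.88, 11.2 and 10.7%. The classes are not of like total capture, because the first TRB of members had medians of 2, 4, 6.5, 10 and 17 UMIs in them. The shares were close in the class of 1 UMI, and members lay above 1-TRB barcodes from 2 UMIs up, with intervals that overlapped at 2 UMIs and did not overlap from 3 UMIs up. In skin the classes were small: 2 TRA were found in 2 of 17, 3 of 22, 3 of 24 and 4 of 9 members with 1, 2, 3 to 4 and 5 to 8 UMIs.

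The balance of the 2 TRB varied little with the number of TRA. In skin the second TRB had a median of 50, 53.6 and 59.8% of the first with 0, 1 and 2 TRA, and in the lymph node 50, 63.1 and 60.0%. Where members held 2 TRA, the second TRA had a median of 50% of the first in skin (n = 12) and 66.7% in the lymph node (n = 100). In 1-TRB barcodes with 2 TRA it was 66.7% in both tissues.

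RNA depth was available for 315 of 394 lymph node members (79.9%) and 2587 of 3219 1-TRB barcodes (80.4%), so similar shares of both groups were in the gene table. Members had a median of 5842 RNA UMIs (quartiles 4285 and 7871) and 1-TRB cells 4445 (quartiles 3394 and 5364), a ratio of 1.31. They had a median of 1811 detected genes, against 1449 in 1-TRB cells, a ratio of 1.25. With every cell reduced at random to 1500 UMIs, without 9 members and 73 1-TRB cells that were shallower, the medians were 679 genes in members and 665 in 1-TRB cells, a ratio of 1.02. The larger number of genes in members thus went with their depth. The table holds no cell with more than 2992 genes, an upper limit that bears on the deepest cells of both groups, and 44.4% of members lay above the 90th percentile of RNA UMIs in 1-TRB cells.

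**Figure D4:**
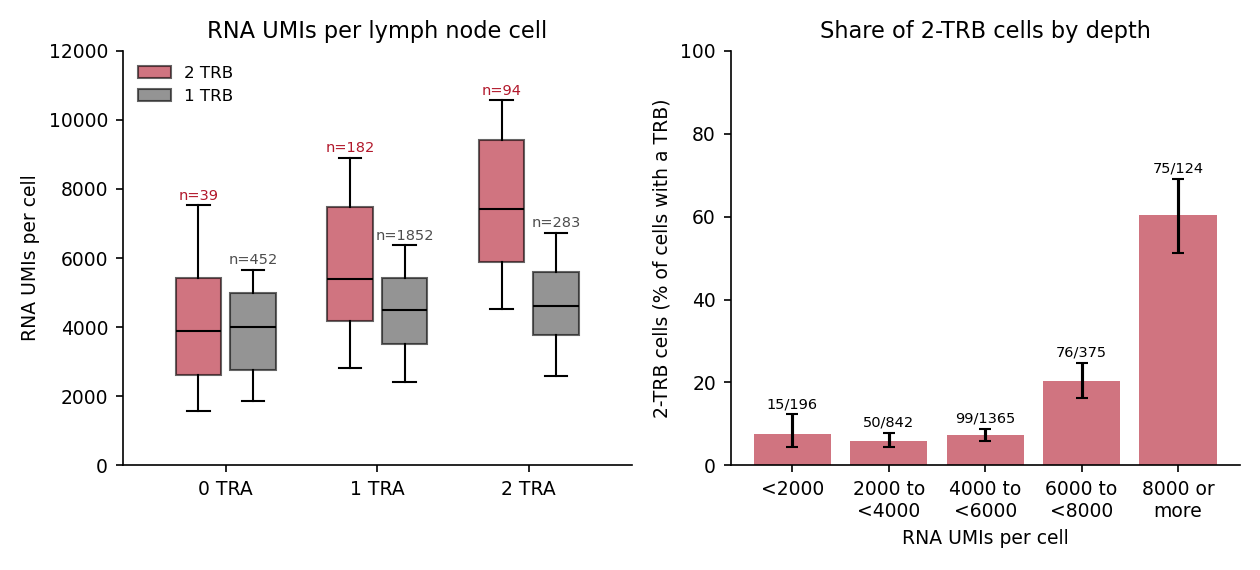
Left: RNA UMIs per lymph node cell (vertical axis) by number of TRA for members (red) and 1-TRB cells (grey), with box at the quartiles, line at the median and whiskers at the 10th and 90th percentiles. Right: members as a percent of all cells with a TRB (vertical axis, exact 95% interval) by RNA UMIs per cell, with counts above the bars; the share is 60.5% in the deepest class and 5.94 to 20.3% in the others.

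The difference in depth varied with the number of TRA. With 0 TRA, members had a median of 3896 RNA UMIs (n = 39) and 1-TRB cells 4010 (n = 452), a ratio of 0.972. With 1 TRA, members had 5393 (n = 182) and 1-TRB cells 4497 (n = 1852), a ratio of 1.20. With 2 TRA, members had 7422 (n = 94) and 1-TRB cells 4624 (n = 283), a ratio of 1.61. A second TRA without a second TRB went with little additional RNA, whereas the combination of 2 TRB and 2 TRA had the highest median of the 6 groups.

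Depth also followed the support of the second TRB. Members had a median of 3185 RNA UMIs where the second TRB had 1 UMI, 4614 with 2, 5904 with 3 to 4, 6794 with 5 to 8 and 7017 with 9 or more. In 1-TRB cells the medians over the same UMI classes of their only TRB were 3738, 3068, 3760, 4266 and 4744. Members, classed by the smaller of 2 chains, were lower in the class of 1 UMI and higher in the other classes. Receptor capture and RNA depth come from the same droplets, and their separate parts were not tested.

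Members were unevenly spread over the depth range. They were 7.65% of cells with a TRB under 2000 RNA UMIs (15 of 196), 5.94% from 2000 to 4000 (50 of 842), 7.25% from 4000 to 6000 (99 of 1365), 20.3% from 6000 to 8000 (76 of 375) and 60.5% from 8000 up (75 of 124, 51.3 to 69.1%). More than 1 in 2 of the deepest cells with a TRB were therefore members. Nevertheless 87 of 315 members (27.6%, 22.8 to 32.9%) had fewer RNA UMIs than the median 1-TRB cell. The mitochondrial share of UMIs had a median of 2.66% in members and 2.58% in 1-TRB cells.

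The RNA library gave a second reading of the same chains, through the Trbv genes in the gene table. Both chains had different V segments with a gene in that table in 223 of the 315 members, while 26 had the same V name in both chains and 66 had a V name that the gene table lacks. The V segment of the second TRB had at least 1 RNA UMI in 212 of 223 members (95.1%, 91.3 to 97.5%). That of the first TRB had one in 217 of 223 (97.3%), and that of the only TRB in 2179 of 2213 1-TRB cells (98.5%). As background, a V segment that was not the cell's own had an RNA UMI in 2.44% of 1-TRB cells, averaged over the segments of the second chains.

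**Figure D5:**
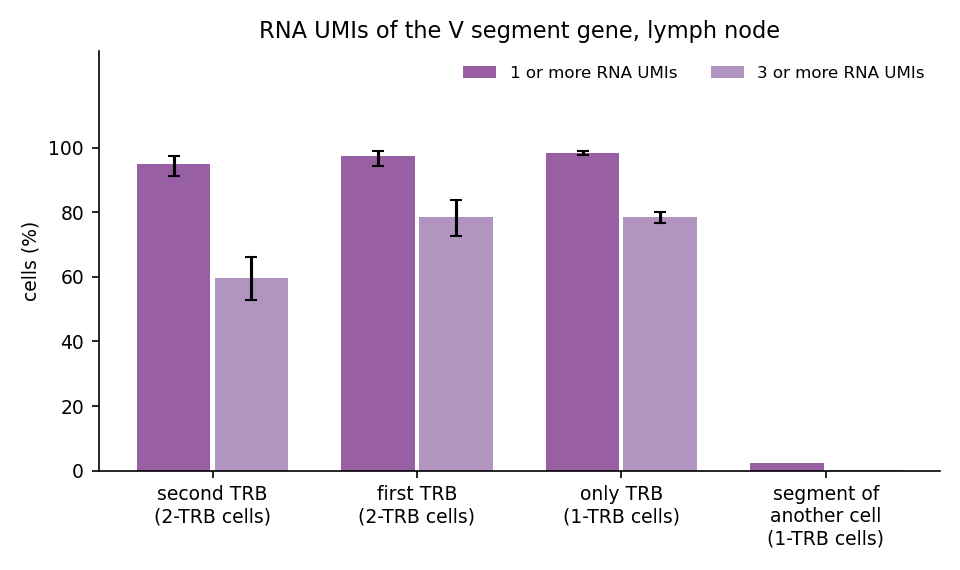
Lymph node cells (vertical axis, percent) with at least 1 (dark) or at least 3 (light) RNA UMIs of a V segment gene, for the second and first TRB of members, the only TRB of 1-TRB cells, and segments that 1-TRB cells do not use (error bars: exact 95% interval; none for the last, which is an average). The second TRB reaches 95.1 and 59.6%, far above the 2.44 and 0.0710% of segments that are not the cell's own.

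With the higher bar of 3 RNA UMIs, the second TRB lay between the first TRB and the background. Its V segment had at least 3 RNA UMIs in 133 of 223 members (59.6%, 52.9 to 66.1%), against 78.5% for first TRB and 78.5% for only TRB, and the background was 0.0710%. The median was 3 RNA UMIs for second, 5 for first and 5 for only TRB. Where receptor UMIs differed, the first TRB had more RNA UMIs than the second in 146 of 198 members (73.7%), the same number in 21 and fewer in 31. The receptor and RNA libraries hold material of the same droplets, so they are not independent samplings of a cell.

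Even second chains with 1 receptor UMI were seen in the RNA. Their V segment had an RNA UMI in 21 of 24 members (87.5%, 67.6 to 97.3%), but at least 3 in 0 of 24, which allows a share of up to 12.5%. With 2 receptor UMIs it had at least 3 RNA UMIs in 3 of 26 members, and with 3 or more in 130 of 173 (75.1%). In the 8 barcodes of recurring lymph node pairs the V segment of chain b had 2, 3, 1, 0, 1, 1, 2 and 5 RNA UMIs and that of chain a had 4, 2, 3, 3, 3, 1, 6 and 2. Both V segments were thus seen in 7 of 8.

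All 20 Trbv genes of the table were then counted without reference to the contigs. At least 2 genes had an RNA UMI in 285 of 315 members (90.5%) and in 888 of 2587 1-TRB cells (34.3%). At least 2 genes had 3 or more RNA UMIs in 154 of 315 members (48.9%, 43.2 to 54.6%) and in 38 of 2587 1-TRB cells (1.47%, 1.04 to 2.01%). Of those 38 1-TRB cells, 19 held a full-length TRB contig that was not productive, against 10.5% of the other 1-TRB cells, and in 15 the second Trbv gene was the V segment of a contig that was not productive. Of the 38, 4 had 2 TRA (10.5%), close to the 10.9% of the other 1-TRB cells. Their median of 4514 RNA UMIs was near the 4445 of the other 1-TRB cells. A second Trbv gene with 3 or more RNA UMIs in cells with 1 productive TRB thus often went with a contig that was not productive.

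Names of V segments differed between the libraries in places, which limits what can be read by name. Contigs named TRBV10, the name of chain b in skin pair 2, went with Trbv4 RNA in 99 of 100 lymph node 1-TRB cells that had at least 2 RNA UMIs of a Trbv gene. Trbv10 is annotated as a V pseudogene in GENCODE M21 and is not among the 20 genes of the table. Contigs assigned jointly to TRBV12-2 and TRBV13-2 went with Trbv13-2 RNA in 203 of 208 cells. For every other V name in the table of genes, the gene of the same name led in most cells, for example Trbv1 in 128 of 128 and Trbv3 in 189 of 189.

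The segments used by second chains were spread widely. In the lymph node the most used V names of second chains were TRBV12-2 (36 of 394, 9.14%) and TRBV3 (36 of 394, 9.14%), against 8.42% of only TRB for TRBV12-2 and 8.29% for TRBV3. In skin they were TRBV10 and TRBV26, each 8 of 72 (11.1%, 4.92 to 20.7%), against 8.47% of only TRB for TRBV10 and 3.32% for TRBV26. TRBV19, the V name of 17.4% of only TRB in skin, was in 8.33% of second chains. The skin values rest on few barcodes, and recurring pairs hold 5 of the 8 TRBV10 chains. Among the 8 TRBV26 chains, recurring pairs hold 3 copies of a sequence and 2 copies of a different sequence. Barcodes of a pair are not independent draws, so the interval given for these skin shares is too narrow. Both chains had the same V name in 4 of 72 skin members and 33 of 394 lymph node members.

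The J segments lie in a pair of clusters, each ahead of its own constant gene. Members joined cluster 1 in one chain with cluster 2 in the other in 40.3% of skin and 40.4% of lymph node barcodes. Both chains used cluster 2 in 44.4% of skin and 46.7% of lymph node members, and both used cluster 1 in 15.3 and 12.9%. Only TRB used cluster 1 in 48.9% of skin and 33.5% of lymph node barcodes.

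In lymph node RNA, the constant genes went with the contigs. Trbc1 made up 60.5% of Trbc1 and Trbc2 UMIs in members with TRBC1 in both chains (48.6 to 71.6%), 39.5% with 1 chain of each (33.3 to 46.0%) and 14.6% with TRBC2 in both (10.5 to 19.7%). In 1-TRB cells it was 58.8% with TRBC1 and 14.0% with TRBC2. Mixed members thus lay between the classes. Trbc1 and Trbc2 are nearly identical, so reads can be assigned to the wrong one and the shares are uncertain.

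Whether the chains of members also occurred alone was asked in each tissue. In skin the second TRB was the only TRB of another barcode in 51.4% of members (37 of 72) and the first in 55.6% (40 of 72), against 68.2% of only TRB (1152 of 1688). The lymph node shares were 11.4% for second (45 of 394), 9.14% for first (36 of 394) and 10.6% for only TRB. With contigs of at least 3 UMIs the lymph node order turned, to 6.08% of second against 9.76% of only TRB. Where both barcodes had a TRA, a TRA of the other barcode was also present in 17 of 26 skin members for the second TRB (65.4%, 44.3 to 82.8%) and 23 of 30 for the first (76.7%), against 829 of 864 for only TRB (96.0%). The corresponding lymph node counts were 5 of 24 for the second TRB (20.8%, 7.13 to 42.2%) and 10 of 18 for the first (55.6%), against 125 of 191 for only TRB (65.4%). These shares were below that of only TRB for both chains in both tissues, but the interval of the lymph node first TRB, 30.8 to 78.5%, spans the value of only TRB. Barcodes of the same recurring pair are counted separately here, so the interval given for skin is too narrow.

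Skin TRB sequences that were frequent among 1-TRB barcodes were scarce in members. The ranking used 1-TRB barcodes only, which by itself favors a high share among only TRB. The TRB of most skin 1-TRB barcodes was the only TRB of 101 of 1688 (5.98%). It was the second TRB of 0 of 72 members and the first of 0 of 72, each of which allows a share of up to 4.17%. The 10 TRB sequences of most 1-TRB barcodes were in 2.78% of second and 4.17% of first TRB, against 19.8% of only TRB (335 of 1688). In the lymph node, where the most frequent sequence was the only TRB of 6 barcodes, the 10 ranked highest in the same way were in 1.78% of second and 0.761% of first TRB, against 1.18% of only TRB. The part of free receptor RNA in the second chains was not tested.

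Sequences shared between tissues made up a smaller share of the chains of skin members than of only chains. In skin, 9.72% of second TRB (7 of 72) and 8.33% of first TRB (6 of 72) were found in the lymph node table, against 26.5% of only TRB (448 of 1688). Of lymph node chains, 5.08% of second (20 of 394) and 3.30% of first TRB (13 of 394) were found in the skin table, against 2.39% of only TRB (77 of 3219). Both chains were found in the other tissue in 1 skin and 3 lymph node members.

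A full-length TRB that was not productive, in members a rearrangement beyond the 2 productive ones, was present in 2 of 72 skin members (2.78%), against 86 of 1688 1-TRB barcodes (5.09%). Among lymph node barcodes it was present in 57 of 394 members (14.5%, 11.1 to 18.3%), against 323 of 3219 1-TRB barcodes (10.03%, 9.02 to 11.1%). No such contig had the V and J names of a productive chain of its barcode. The 44 lymph node members with one and with RNA had a median of 6946 RNA UMIs, against 4474 in the 287 1-TRB cells with one. None of the 29 barcodes of recurring pairs held one, 0 of 21 in skin and 0 of 8 in the lymph node.

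Gene expression was compared between the 315 members and the 2587 1-TRB cells of the lymph node, with UMIs summed over cells and scaled to CPM, the UMIs of a gene per 1000000 UMIs. Of 8899 genes with at least 50 UMIs, 11 (0.124%) had a log2 ratio of at least 1 and 25 (0.281%) had a ratio of at most -1, with a median of 0.02 over all genes. Nearly all genes thus lay within the fold in both directions. Exact intervals lay above 0 for 357 genes (4.01%) and below 0 for 195 (2.19%). The counts past the fold moved by over 1.5 times with the minimum of UMIs, the prior, thinning and the contig filter, from 3 to 40 genes higher and from 0 to 132 lower. All are counts within 1 library, with no replicate check.

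Both groups expressed the genes of the sort. Cd8b1, the beta chain of the CD8 coreceptor, was at 1416 CPM in members and 1395 CPM in 1-TRB cells, with a UMI in 98.7% of members and 97.4% of 1-TRB cells. Cd8a was at 599 CPM in members and 550 CPM in 1-TRB cells, Cd44 at 79.4 CPM in members and 69.5 CPM in 1-TRB cells, and Cd3e, a signalling chain of the receptor complex, at 896 CPM in members and 911 CPM in 1-TRB cells. Cd4 is not in the gene table. Xist, transcribed from the inactive X chromosome, was at 423 CPM in members and 383 CPM in 1-TRB cells, and none of the Y-linked genes looked for is in the table.

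The beta constant genes were slightly higher in members. Trbc2 was at 206 CPM in members and 169 CPM in 1-TRB cells (log2 ratio 0.28, 0.13 to 0.44), and Trbc1 at 96.6 CPM in members and 81.2 CPM in 1-TRB cells (0.25, 0.02 to 0.48). Cd247, the zeta chain, was at 183 CPM in members and 160 CPM in 1-TRB cells (0.19, 0.02 to 0.36). Of the 7 genes of the complex, these 3 had an interval above 0 and none had one below, with a median log2 ratio of 0.01. The alpha constant gene Trac was at 217 CPM in members and 224 CPM in 1-TRB cells (-0.05, -0.20 to 0.10). Among 11 TCR signalling genes the median was 0.03, with 1 interval above 0 and none below.

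Effector genes had higher values in members, Gzma and Gzmb on few cells. Of 17 genes in the list, 15 were in the table, all 15 were higher in members, and their median log2 ratio was 0.54, against 0.02 over all genes tested. Of the 15, 9 had an interval above 0 and none below, against 4.01% of all genes above and 2.19% below. These intervals count the UMIs of 1 cell as separate, so they are too narrow where few cells hold most UMIs of a gene. Not all of the 9 genes were looked at by cell, so their number may not be comparable with the share over all genes. Only 13 of the 15 had at least 50 UMIs, the minimum behind the shares of all genes. Summed over the list, the log2 ratio was 0.13 (0.09 to 0.16). Gzma, a granule protease, was at 62.8 CPM in members and 18.1 CPM in 1-TRB cells (1.74, 1.46 to 2.13). Of its 121 UMIs in members 61 were in 1 cell and 102 in 5 cells, and without the highest cell the log2 ratio was 0.76. Gzmb was at 39.5 CPM in members and 13.9 CPM in 1-TRB cells (1.44, 1.09 to 1.91), with 36 of 76 UMIs in 1 cell and a log2 ratio of 0.55 without it. A Gzma or Gzmb UMI was found in 23 of 315 members (7.30%, 4.68 to 10.8%) and 118 of 2587 1-TRB cells (4.56%, 3.79 to 5.44%), so the intervals of the share overlapped. The abundant effector genes Nkg7 (1179 CPM in members and 1163 CPM in 1-TRB cells, log2 ratio 0.02) and Ctsw (634 CPM in members and 618 CPM in 1-TRB cells, 0.03) were close between the groups.

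The other lists are set against the same background of 4.01% of genes with an interval above 0 and 2.19% below. The limit given above for intervals of genes with UMIs in few cells applies to these lists too. Of 10 early response genes of receptor signalling, 4 had an interval above 0 and none below, with a median of 0.21 and a log2 ratio of 0.19 for their summed UMIs. Members were higher in 9 of the 10 and lower in Egr1 (-0.37, -1.23 to 0.32). Irf4 was at 7.79 CPM in members and 4.02 CPM in 1-TRB cells (0.81, 0.005 to 1.82), with 15 UMIs in members. With cells reduced at random to 1500 UMIs, Irf4 had a UMI in 0.33% of members (0.01 to 1.81%) and 0.60% of 1-TRB cells (0.33 to 0.98%). Of 12 interferon response genes, 4 had an interval above 0 and none below, with a median of 0.17 and 0.21 for their sum, for example Isg15 at 95.5 CPM in members and 67.0 CPM in 1-TRB cells (0.51, 0.27 to 0.75). Of 10 residency genes, 4 had an interval above 0 and none below, with a median of 0.19 and 0.18 for their sum, for example Itgae, the CD103 integrin, at 54.5 CPM in members and 39.5 CPM in 1-TRB cells (0.45, 0.14 to 0.77). Of 12 proliferation genes, 2 had an interval below 0 and none above, with a median of -0.08 and -0.13 for their sum; Stmn1 was at 13.0 CPM in members and 23.3 CPM in 1-TRB cells (-0.80, -1.50 to -0.25). Of 5 measured genes of V(D)J recombination, the DNA cutting and joining that makes the chains, 1 had an interval below 0, with a median of 0.01.

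Among genes seen in at least 10% of cells of the group in which they were higher, the highest ratio was that of Ccl4, a chemokine, at 87.2 CPM in members and 38.2 CPM in 1-TRB cells (1.17, 0.92 to 1.45). Of its 168 UMIs in members 89 were in 1 cell, and the log2 ratio was 0.11 without it. The next were Hdac10 (18.7 CPM in members and 8.92 CPM in 1-TRB cells, 0.99) and Zswim8 (18.2 CPM in members and 8.92 CPM in 1-TRB cells, 0.95). Both passed the limit of 10% only in members, which were the deeper cells: Hdac10 had a UMI in 10.2% of members and 3.79% of 1-TRB cells, and Zswim8 in 11.1% of members and 3.79% of 1-TRB cells. The lowest were Pfdn4, a subunit of the prefoldin chaperone, at 12.5 CPM in members and 26.0 CPM in 1-TRB cells (-1.003, -1.73 to -0.46), and Dym at 17.1 CPM in members and 28.2 CPM in 1-TRB cells (-0.69). Pfdn4 passed the limit of 10% only in 1-TRB cells, with a UMI in 10.9% of them and in 7.62% of members. Lag3, an inhibitory receptor, was at 21.8 CPM in members and 9.71 CPM in 1-TRB cells (1.09, 0.62 to 1.69), and among the 9 genes of the anergy-associated list 2 had an interval above 0 and none below.

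Markers of other cell types were set beside these values. Of 10 B cell markers 7 were in the table, summed at 263 CPM in members and 228 CPM in 1-TRB cells. Of the 7, 6 were higher in members, 4 with an interval above 0 and 1 with one below, and their median log2 ratio was 1.18. Only 4 of the 7 had at least 50 UMIs over both groups: Cd74, Cd79b, Ighm (log2 ratio 0.02) and Ighd (0.15). The median and the interval counts thus include genes under that minimum, which the shares over all genes do not cover. Ighm, an immunoglobulin heavy chain gene, made up most of the sum, at 174 CPM in members and 171 CPM in 1-TRB cells. A UMI of Ighm was found in 57.8% of members, the deeper cells, and 47.9% of 1-TRB cells. With cells reduced at random to 1500 UMIs, the shares were 15.7% of members (11.8 to 20.3%) and 20.5% of 1-TRB cells (19.0 to 22.2%). Cd74, the invariant chain of antigen presentation, was at 45.7 CPM in members and 18.7 CPM in 1-TRB cells (1.24), with 42 of its 88 UMIs in 1 cell and a log2 ratio of 0.34 without it, while Cd79b was at 18.2 CPM in members and 27.0 CPM in 1-TRB cells (-0.55). Of 11 myeloid markers 3 were in the table, summed at 10.9 CPM in members and 10.7 CPM in 1-TRB cells. Of 7 NK cell markers 4 were in the table, summed at 154 CPM in members and 112 CPM in 1-TRB cells and including Gzma. Of these 4, 2 were higher and 2 lower in members. Gzma had an interval above 0, and Tyrobp, with 2 UMIs in members, had one below (-1.44, -5.21 to -0.21). Of 7 gamma delta T cell markers 2 were in the table, summed at 46.7 CPM in members and 31.7 CPM in 1-TRB cells. These 2 were higher in members. Only Trgv2 had an interval above 0, at 18.2 CPM in members and 7.61 CPM in 1-TRB cells (1.15, 0.65 to 1.84). Of 5 CD4 T cell markers 3 were in the table, summed at 20.8 CPM in members and 11.99 CPM in 1-TRB cells (0.79, 0.25 to 1.31). All 3 were higher in members, 1 with an interval above 0, but only 1 of the 3 had at least 50 UMIs. Of 7 dendritic cell, 8 stromal and 7 keratinocyte markers 1 each was in the table. They were at 5.19, 24.4 and 11.9 CPM in members and 2.80, 23.8 and 9.97 CPM in 1-TRB cells. None of the 6 melanocyte and none of the 6 erythroid and platelet markers was in the table. The part of other cells in the ratios above was not tested.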

How the data were processed

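The deposited lymph node gene table gives a UMI count for each gene in each cell, and the deposited receptor tables give a UMI count and a read count for each contig of a tissue, lanes together. Bowtie, RSEM and mm10 are named in the submitters' processing notes; the software that assembled contigs is not given there. Contigs that were productive and full-length were kept, and chains were defined by CDR3 nucleotide sequence and ordered by UMIs, ties by reads. Barcodes were joined to the gene table by name. No doublet caller was run and no cell was removed. Log2 ratios have a prior of 1 CPM; intervals are exact 95% intervals without it. An upper share beside a count of 0 is 3 counts over the total. The members and all gene lists were chosen with earlier results of these data known. Named genes are the 10 highest and 10 lowest ratios (detected in at least 10% of cells on the higher side, at least 50 UMIs, no receptor, mitochondrial or ribosomal protein genes; a selection is printed), the 2 highest and lowest of each list, and the TCR complex and sort genes; Ccl4, Gzma, Gzmb and Cd74 were looked at by cell after their values were seen. Of 9428 gene names, 9361 were in GENCODE M21. Python 3.11.15 with numpy 2.4.6, pandas 2.3.3, scipy 1.17.1 and matplotlib 3.10.9 was used, and the scripts were tested on simulated data.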

Additional observations from a re-analysis of the deposited data

Results flagged for a closer look

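The share of members with a full-length TRB that was not productive lay on opposite sides of the 1-TRB share in the 2 tissues. It differed from the 1-TRB share by -2.32 percentage points in skin (2 of 72 members, against 86 of 1688 1-TRB barcodes) and by 4.43 percentage points in the lymph node (57 of 394 members, against 323 of 3219 1-TRB barcodes). The difference between skin and lymph node was not tested.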

How the results depend on the processing

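No paired analysis was possible because the numbers shared by the groups are lanes of 1 library per tissue and assay; for the same reason no replicate could be left out. Values of 1-TRB barcodes or cells are in parentheses. Of 72 alternatives to 13 results, 49 stayed within the counting interval of the reported value (for counts of genes, within 1.5 times), 22 moved and 1 changed direction: with contigs of at least 3 UMIs the second sequence was carried by another barcode in 6.08% of lymph node members (9.76%), where 11.4% (10.6%) was reported; the cause was not tested. With contigs of at least 3 UMIs, the 2-TRB share was 2.51% in skin and 8.11% in the lymph node, where it was 8.99% with at least 2, the share with 2 TRA was 6.06% in skin members (1.95%) and 17.9% in lymph node members (4.90%), and lymph node members had 6442 RNA UMIs (4484) and 1906 genes (1458). Without barcodes of recurring pairs, an alternative chosen after seeing the data, the skin share was 2.93%. Among barcodes with a TRA, 31.8% of lymph node members had 2 (12.05%). RNA UMIs were 3219 in members (2374) without receptor, mitochondrial and ribosomal protein genes, and genes were 679 (665) at 1500 and 505 (495) at 1000 UMIs per cell. Genes past the fold depended most on the setting: 26 higher and 45 lower with at least 10 UMIs, 4 and 1 with at least 200, 3 and 0 with a prior of 10 CPM, 40 and 132 with cells thinned to 1500 UMIs, and 18 and 50 with contigs of at least 3 UMIs. Joining V names to the leading Trbv gene, also chosen after seeing the data, gave a V segment RNA UMI for 95.04% of second chains in 282 members. Chains with 1 UMI limit the calls in both tissues.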
